A study of Mus musculus with 7 samples.

Results

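Autophagy encloses cytoplasm in a double membrane, the autophagosome, and delivers it to lysosomes. The ULK1 kinase complex starts the process, and a lipid kinase complex around Beclin 1 marks the growing membrane. WIPI proteins read that mark, and ATG2 and ATG9 proteins supply lipid to the membrane. Paired conjugation reactions then attach small ATG8 proteins (the LC3 and GABARAP subfamilies) to the membrane, where cargo receptors dock. The retinal pigment epithelium (RPE), the pigmented layer behind the photoreceptors, also uses the conjugation machinery to process the photoreceptor outer segments it engulfs. The transcripts described here are the 35 genes of this machinery, chosen by symbol, of 21861 rows in the count table. All 35 were found once and passed the filter on low counts.

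The study sequenced polyadenylated RNA from aged mouse RPE taken 12 weeks after an adeno-associated virus (AAV) carrying GFP (3 libraries) or GSTA4 (4 libraries). GSTA4 is a glutathione transferase that conjugates aldehydes formed by lipid peroxidation, and the GFP vector was the control. Both groups were old, both received a vector, and strain, sex, age, the vectors' promoters and whether animals were pooled are not given in the sources used here. The labels number the libraries as replicates without saying that they came from separate animals, so p-values measure only the spread between these libraries.

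The hGSTA4 row, read from its name as the human transgene, had 3, 1 and 1 counts in the AAV-GFP libraries, no more than the 3 counts taken as the floor. In AAV-GSTA4 replicates 1 to 4 hGSTA4 reached 222, 251, 2.64 and 43.7 CPM (reads as a share of the library total, scaled by the trimmed mean of M-values, TMM). The d2EGFP row was at 4.61, 153 and 113 CPM in AAV-GFP and at 8.58, 3.07, 0.411 and 0.959 CPM in AAV-GSTA4, so AAV-GFP replicate 1 was below AAV-GSTA4 replicate 1. All 15 RPE markers were detected, with a summed level of 23418 to 71788 CPM in AAV-GFP and 62180 to 111006 CPM in AAV-GSTA4. Rod photoreceptor markers did not overlap between the groups: their 13 genes summed to 15458 to 39948 CPM in AAV-GFP and to 7510 to 13839 CPM in AAV-GSTA4. Markers of macrophages and microglia (12 genes) lay at 488 to 937 CPM and 716 to 967 CPM. AAV-GFP replicate 3 stood apart, with the fewest RPE counts, the most rod counts and a TMM factor of 1.36 against 0.868 to 1.05 elsewhere. Lens genes (9) summed to 3131 to 13743 CPM in AAV-GFP and 4809 to 128203 CPM in AAV-GSTA4. Endothelial markers lay at 38.1 to 176 CPM in the controls and 42.7 to 59.2 CPM with GSTA4, fibroblast markers at 174 to 947 and 299 to 634 CPM, melanocyte markers at 60.7 to 121 and 66.9 to 99.4 CPM, and Müller glia markers at 538 to 655 and 551 to 677 CPM. Y-linked transcripts were present in 1 AAV-GFP and 2 AAV-GSTA4 libraries. The part of rod, lens or sex-linked RNA in the results below was not tested, apart from the fits with a rod marker covariate or a Y-linked factor named below. In bulk RNA, fewer cells of a type and less RNA per cell cannot be told apart.

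Across the 35 genes, 0 passed an adjusted p of 0.05 (edgeR, quasi-likelihood; Benjamini-Hochberg over all genes tested), and the smallest adjusted p was 0.363. Of all 15075 genes tested, 0% passed as well. At an unadjusted p under 0.05, 6 of the 35 genes (17.1%) were found, beside 11.9% of all genes tested. Of these, 4 (11.4%) were higher in AAV-GSTA4, beside 5.27% of all genes, and 2 (5.71%) were lower, beside 6.63%. The groups did not overlap for 6 of the 35 genes (17.1%), beside 12% of all genes. The median log2 fold change was -0.03 over the autophagy genes and -0.07 over all genes, and 17 of the 35 were above 0, beside 44.6% of all genes. Leaving out AAV-GSTA4 replicate 4 brought the 6 genes down to 2, Rb1cc1 and Wipi1, where the share of all genes fell to 8.47%. Over the 7 fits that each leave out 1 library, Rb1cc1 had an unadjusted p under 0.05 in 7, Wipi1 in 6, Becn1 and Atg2a in 4, Uvrag in 3 and Atg7 in 2.

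**Figure D1:**
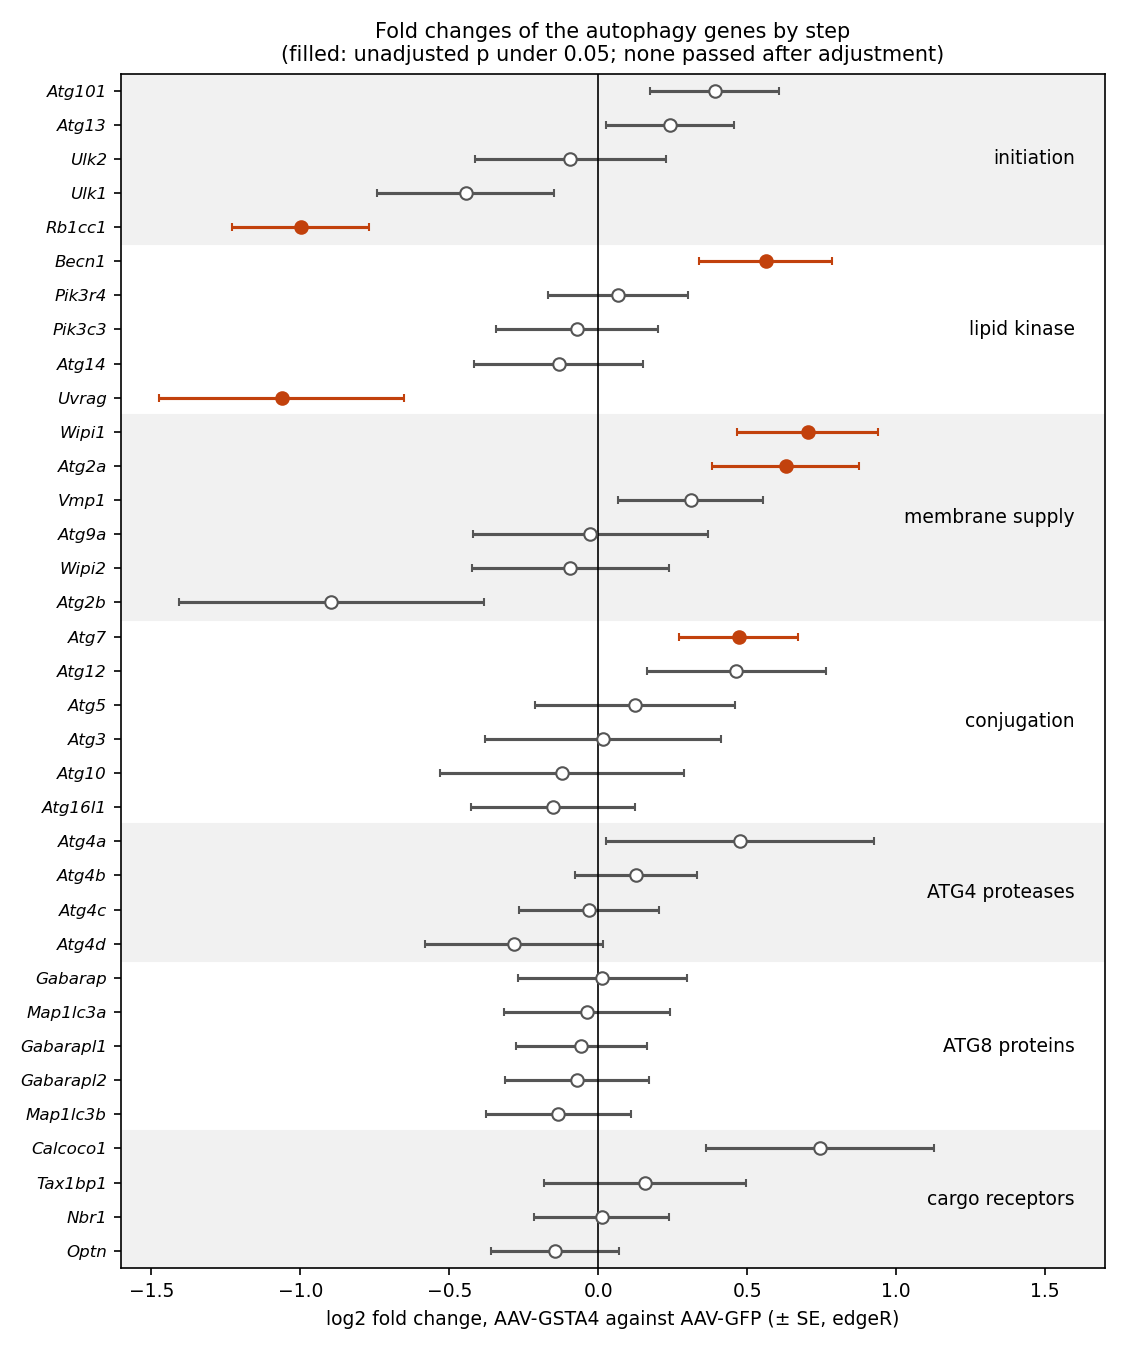
Log2 fold change (AAV-GSTA4 over AAV-GFP) with its standard error for each of the 35 autophagy genes (edgeR, 3 and 4 libraries), grouped by step. Filled points mark the 6 genes with an unadjusted p under 0.05, and the 5 ATG8 genes lie between -0.13 and 0.01.

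Within the complex that starts autophagy, Rb1cc1 had the smallest p of the 35 genes. It encodes FIP200, the scaffold that holds the ULK1 complex together and binds cargo receptors. The gene lies at chr1:6206197-6276648 (plus strand, GRCm38). Its level was 40.7, 43.3 and 62.6 CPM in AAV-GFP replicates 1 to 3 and 28.8, 24.8, 23.4 and 21.0 CPM in AAV-GSTA4 replicates 1 to 4. Every AAV-GSTA4 library lay below every AAV-GFP library, and AAV-GFP replicate 3 was the highest. The means were 48.9 CPM ± 12.0 (SD, n = 3) and 24.5 CPM ± 3.28 (SD, n = 4). On the log2 scale the difference was -0.998 ± 0.23 (SE), at an adjusted p of 0.363 in edgeR's test.

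Of the 35 genes, Rb1cc1 alone passed after adjustment in any of the 18 alternative fits. In DESeq2 its adjusted p was 0.0286, where 1.33% of all genes passed. In limma-voom it was 0.0456 with robust variance moderation and 0.0589 without. Leaving out AAV-GFP replicate 3 gave a log2 fold change of -0.78 ± 0.21 (SE), with an adjusted p of 0.313 in edgeR's test. Rod markers moved with the groups, and with their mean level as a covariate, which itself separates the groups, the Rb1cc1 difference was -0.51 ± 0.31 (SE) at an adjusted p of 0.705. The library with the least transgene, AAV-GSTA4 replicate 3, was at 23.4 CPM, inside the range of the other 3.

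The other members of the starting complex had smaller differences. Ulk1, the kinase itself, was at 17.1, 14.4 and 30.0 CPM in AAV-GFP and at 13.9, 14.2, 17.5 and 14.6 CPM in AAV-GSTA4. Its groups overlapped, and AAV-GFP replicate 3 alone was high. Its log2 fold change of -0.44 ± 0.30 (SE) became -0.06 ± 0.25 without that library. Ulk2, the second kinase, was at 18.6, 15.2 and 12.0 CPM and at 19.3, 15.5, 13.6 and 8.78 CPM, also overlapping (log2 fold change -0.09 ± 0.32, SE). Atg13 and Atg101, the adaptor pair that binds the kinase to the scaffold, had log2 fold changes of 0.24 and 0.39 with overlapping groups. Of these 5 genes, the groups did not overlap for Rb1cc1 alone.

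The log2 ratio of Ulk1 to Ulk2 counts, which does not depend on library scaling, averaged 0.37 ± 0.82 (SD, n = 3) in the controls and 0.12 ± 0.53 (SD, n = 4) with GSTA4. The exact two-sided permutation test over 35 relabellings gave p = 0.657, and 0.857 after adjustment over the 3 ratios compared. The smallest p this design allows is 0.0286.

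In the lipid kinase step, Becn1 and Uvrag lay in opposite directions. Becn1 encodes Beclin 1, a core subunit of the complex that makes phosphatidylinositol 3-phosphate. It was at 68.5, 68.4 and 50.2 CPM in AAV-GFP and at 83.9, 111, 74.8 and 98.7 CPM in AAV-GSTA4. All AAV-GSTA4 libraries were above all AAV-GFP libraries, with means of 62.4 CPM ± 10.5 (SD, n = 3) and 92.1 CPM ± 15.9 (SD, n = 4). Its log2 fold change, 0.56 ± 0.22 (SE), had an unadjusted p of 0.0319 and an adjusted p of 0.384 in edgeR's test. At chr11:101285952-101302286 (minus strand, GRCm38), 43.9% of the annotated Becn1 exon length overlaps Cntd1 on the opposite strand. The library kit does not mark strand, and the Cntd1 row had 0 to 14 counts per library. The part of reads from the overlap in the Becn1 level was not tested.

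Uvrag encodes the subunit that takes the place of ATG14 in the form of the complex acting on endosomes and late autophagosomes. Its levels were 23.9, 17.8 and 39.9 CPM in AAV-GFP and 22.3, 11.6, 7.29 and 10.9 CPM in AAV-GSTA4. The groups overlapped through AAV-GSTA4 replicate 1, and the other 3 AAV-GSTA4 libraries lay below every control. The log2 fold change of -1.06 ± 0.41 (SE) had an unadjusted p of 0.0282 and an adjusted p of 0.383 in edgeR's test. Without AAV-GFP replicate 3 it was -0.67 ± 0.40 (SE), and with the rod marker covariate -0.48 ± 0.61 (SE). The lowest Uvrag value came from the library with the least transgene.

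The remaining members of the complex had overlapping groups. Pik3c3, the catalytic subunit VPS34, averaged 35.4 CPM ± 12.1 (SD, n = 3) and 33.7 CPM ± 6.51 (SD, n = 4). Pik3r4, its regulatory partner, averaged 21.9 CPM ± 4.36 (SD, n = 3) and 23.0 CPM ± 2.92 (SD, n = 4). Atg14, which directs the complex to the forming autophagosome, averaged 22.8 CPM ± 6.12 (SD, n = 3) and 20.8 CPM ± 5.12 (SD, n = 4). Their adjusted p-values in edgeR's test ran from 0.880 to 0.938.

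**Figure D2:**
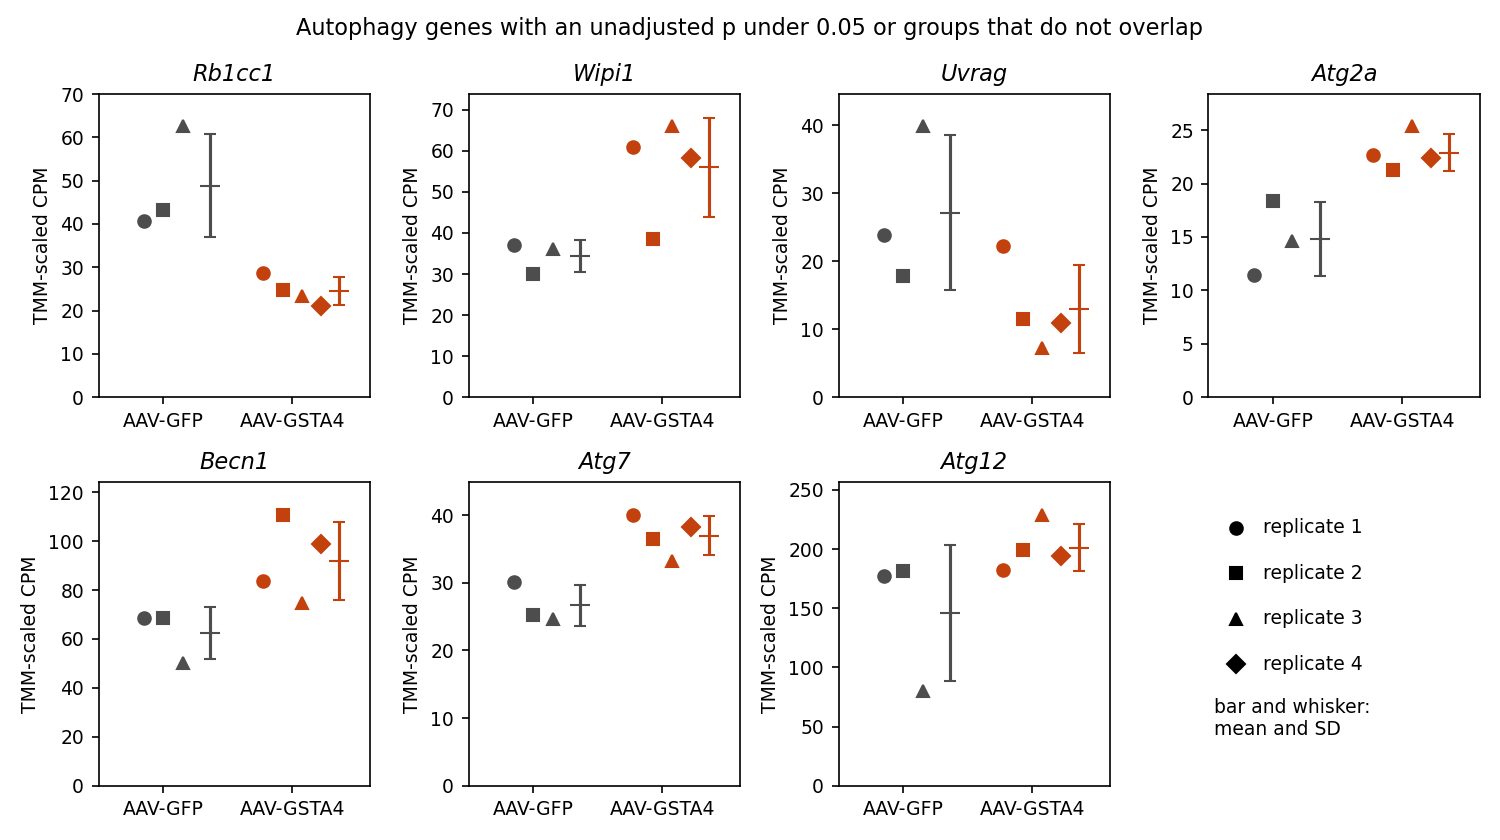
TMM-scaled CPM in each library for the 7 autophagy genes with an unadjusted p under 0.05 or groups that did not overlap, with the group mean and SD beside the points. Rb1cc1 and Uvrag were lower in AAV-GSTA4 and the other 5 higher, and Uvrag was the only 1 of the 7 whose groups overlapped.

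Among the genes of the membrane supply step, Wipi1 and Atg2a were higher in AAV-GSTA4. Wipi1 encodes a protein that reads the lipid made by the Beclin 1 complex. It was at 37.1, 29.9 and 36.2 CPM in AAV-GFP and at 61.0, 38.6, 66.1 and 58.4 CPM in AAV-GSTA4. The groups did not overlap, although AAV-GSTA4 replicate 2 lay just above the highest control. The means were 34.4 CPM ± 3.91 (SD, n = 3) and 56.0 CPM ± 12.1 (SD, n = 4). Wipi1 thus differed by 0.70 ± 0.24 (log2, SE). The unadjusted p was 0.0147 and the adjusted p 0.363 in edgeR's test. Wipi1 lies at chr11:109573331-109611967 (minus strand, GRCm38).

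Atg2a encodes a lipid transfer protein that bridges the endoplasmic reticulum and the growing membrane. Its levels were 11.5, 18.3 and 14.6 CPM in AAV-GFP and 22.6, 21.3, 25.4 and 22.4 CPM in AAV-GSTA4. The 4 AAV-GSTA4 values lay close together and above all controls. The groups differed by 0.63 ± 0.25 (log2, SE), at an unadjusted p of 0.0301 and an adjusted p of 0.383 in edgeR's test. Wipi1 and Atg2a differed little without AAV-GFP replicate 3, at 0.74 ± 0.25 (SE) and 0.62 ± 0.27 (SE). With the rod marker covariate Wipi1 was at 0.71 ± 0.37 (SE) and Atg2a at 0.89 ± 0.41 (SE), while Becn1 was at 0.20 ± 0.33 (SE) and Atg7 at 0.28 ± 0.31 (SE). With that covariate, 0 of the 6 genes kept an unadjusted p under 0.05, where 7.88% of all genes had one, and Atg10 was the 1 gene of the 35 that did.

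Their paralogs are given beside them. Atg2b, the second ATG2 gene, was at 7.88, 13.0 and 33.1 CPM in AAV-GFP and at 14.9, 10.0, 5.05 and 8.60 CPM in AAV-GSTA4. AAV-GFP replicate 3 was far above the other 6 libraries, and the log2 fold change of -0.90 ± 0.51 (SE) was -0.11 ± 0.43 (SE) without it. Wipi2 averaged 65.7 CPM ± 3.26 (SD, n = 3) and 61.6 CPM ± 27.4 (SD, n = 4), with a wide spread in AAV-GSTA4 from 32.9 to 95.6 CPM. Whether the paralogs differed from each other in response was not tested.

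Atg9a encodes the membrane protein of the vesicles that seed autophagosomes. It was at 12.2, 10.0 and 31.6 CPM in AAV-GFP and at 19.7, 15.5, 19.8 and 15.5 CPM in AAV-GSTA4. The third AAV-GFP library was again the highest and the other 2 were the lowest of all 7. The log2 fold change of -0.03 ± 0.40 (SE) became 0.67 ± 0.26 (SE) without that library, with an adjusted p of 0.364 in edgeR's test. Vmp1, a lipid scramblase of the endoplasmic reticulum that acts with ATG2 and ATG9, averaged 203 CPM ± 50.4 (SD, n = 3) and 252 CPM ± 30.8 (SD, n = 4), with overlapping groups.

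Conjugation of the ATG8 proteins needs the activating enzyme ATG7, the transfer enzymes ATG3 and ATG10, and the ATG12, ATG5 and ATG16L1 complex. Atg7 was at 30.2, 25.3 and 24.6 CPM in AAV-GFP and at 40.1, 36.5, 33.2 and 38.2 CPM in AAV-GSTA4. The groups did not overlap, with means of 26.7 CPM ± 3.03 (SD, n = 3) and 37.0 CPM ± 2.93 (SD, n = 4). Its log2 fold change of 0.47 ± 0.20 (SE) had an unadjusted p of 0.0406 and an adjusted p of 0.401 in edgeR's test. Leaving out AAV-GFP replicate 3 gave 0.42 ± 0.20 (SE).

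Atg12 encodes the ubiquitin-like protein joined to ATG5. It was at 177, 181 and 79.6 CPM in AAV-GFP and at 182, 199, 229 and 194 CPM in AAV-GSTA4. The groups did not overlap, yet the highest control and the lowest AAV-GSTA4 library differed by little, and only AAV-GFP replicate 3 was far below. A log2 fold change of 0.46 ± 0.30 (SE) came to 0.17 ± 0.18 (SE) without it. Atg5 was at 75.0, 59.5 and 24.6 CPM in AAV-GFP and at 53.0, 50.5, 61.4 and 66.3 CPM in AAV-GSTA4, and its groups overlapped with the same library lowest (log2 fold change 0.12 ± 0.34, SE). Atg3, Atg10 and Atg16l1 had log2 fold changes of 0.01, -0.12 and -0.15. Atg3 spanned 38.0 to 123 CPM within AAV-GSTA4 alone, with replicate 2 the highest.

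Many genes of the lysosome and of autophagy carry the CLEAR element near their start, an E-box type sequence bound by TFEB, TFE3 and MITF. The members' promoters were searched because MITF is a defining RPE factor. RefSeq promoter windows (GRCm38.p6, 250 bases before to 50 after each start) were matched for 29 of the 35 genes. The CLEAR core TCACGTG, searched on both strands, was found for 3 of the 29 genes (10.3%), Atg3, Atg7 and Atg14, against 4.29% of 27025 genes. The wider E-box CACGTG, which the core contains, was found for 4 of 29 (13.8%) against 8.09%. The full CLEAR element, which extends the core, was also searched and was found for 0 of the 29 genes, against 0.37% of all genes. These are matches of letters, not measured binding. The stretches around the cores are shown for the conjugation genes Atg3 and Atg7, with the matching bases in capitals, on the plus strand.
Atg3, chr16:45158714-45158784: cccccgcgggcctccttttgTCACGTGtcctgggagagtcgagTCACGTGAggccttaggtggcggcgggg
Atg7, chr6:114670943-114670989: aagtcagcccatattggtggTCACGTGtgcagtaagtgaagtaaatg
The Atg3 cores begin 95 and 72 bases before the RefSeq start, and the second is read on both strands. The Atg7 core begins 133 bases before a RefSeq start that lies inside the longer GENCODE gene. The stretch shown around this core holds 0 exon bases of that gene. Atg7, with 1 core, had groups that did not overlap, while Atg3, with 2, had a log2 fold change of 0.01 ± 0.40 (SE). Atg14, also with 1 core, had overlapping groups and a log2 fold change of -0.13 ± 0.28 (SE).

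ATG4 proteases prepare ATG8 proteins for conjugation and remove them from membranes. None of the 4 ATG4 genes had an unadjusted p under 0.05. Atg4b averaged 72.3 CPM ± 11.0 (SD, n = 3) and 78.8 CPM ± 9.83 (SD, n = 4), and Atg4c 24.5 CPM ± 5.12 (SD, n = 3) and 24.0 CPM ± 3.06 (SD, n = 4). Atg4d had a log2 fold change of -0.28, and 19.3% of its exon length overlaps Kri1 on the opposite strand. Atg4a ranged from 16.4 CPM in AAV-GFP replicate 3 to 82.2 CPM in replicate 1, a wider spread within the controls than between the group means of 48.1 and 66.9 CPM.

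The ATG8 genes were among the most abundant of the machinery, and of the 7 steps theirs had the narrowest range of log2 fold changes with TMM scaling and group as the only factor. Per kilobase of the principal GENCODE M21 transcript, Gabarap ranked first of the 35 genes at 257 CPM per kb ± 54.7 (SD over 7 libraries). Tax1bp1 followed at 209 ± 60.3 and Map1lc3b at 176 ± 27.4, then Map1lc3a at 108 ± 24.8, Gabarapl2 at 107 ± 18.2, Vmp1 at 82.9 ± 16.0 and Gabarapl1 at 72.3 ± 10.4. Gabarap and Tax1bp1 lay within 1 SD of each other, as did Map1lc3a and Gabarapl2, while Map1lc3b lay within 1 SD of Tax1bp1 by the wider spread of Tax1bp1 alone. Atg2b was the lowest of the 35 at 1.75 ± 1.24 CPM per kb. With all annotated exons as the length, Gabarap stayed first and Atg2b last, but Map1lc3b moved from rank 3 to rank 7.

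**Figure D3:**
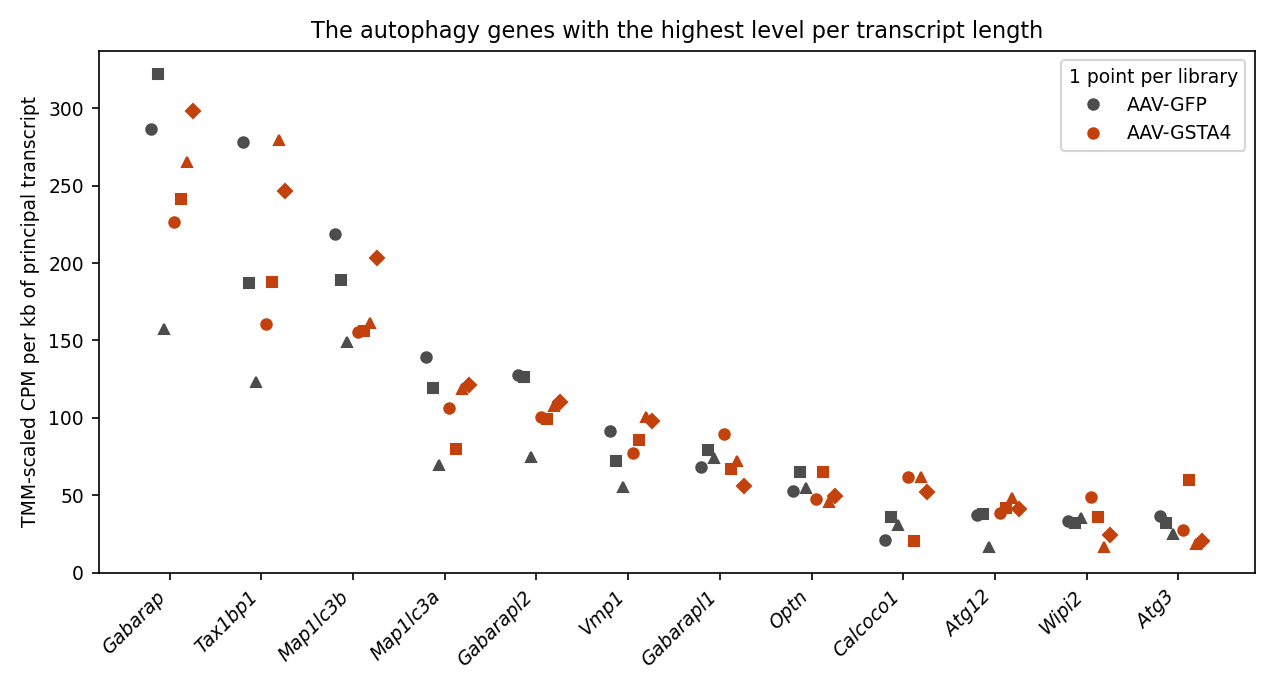
TMM-scaled CPM per kilobase of principal transcript for the 12 autophagy genes with the highest mean, 1 point per library. Gabarap, Tax1bp1 and Map1lc3b stand above the rest, and AAV-GFP replicate 3 (grey triangles) is the lowest library for Gabarap, Tax1bp1, Map1lc3b, Map1lc3a and Gabarapl2.

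Gabarap was at 387, 435 and 213 CPM in AAV-GFP and at 306, 326, 358 and 403 CPM in AAV-GSTA4. Map1lc3b, the LC3 form most used as an autophagosome marker, was at 553, 479 and 377 CPM and at 394, 395, 408 and 515 CPM. For both genes the groups overlapped and AAV-GFP replicate 3 was the lowest of the 7 libraries. Map1lc3a was at 155, 133 and 77.3 CPM in AAV-GFP and at 119, 88.9, 132 and 135 CPM in AAV-GSTA4. Gabarapl2 was at 214, 212 and 125 CPM and at 169, 166, 180 and 185 CPM. For these genes too the third control was the lowest library, and the other 2 controls were the highest 2 for Gabarapl2. Gabarapl1 was at 124, 144 and 135 CPM and at 163, 122, 131 and 102 CPM, and its lowest library was AAV-GSTA4 replicate 4.

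The 5 log2 fold changes lay between -0.13 and 0.01, with standard errors of 0.22 to 0.28 and adjusted p-values of 0.852 to 0.990 in edgeR's test. With errors of that size equal levels are not shown. Map1lc3b moved to -0.60 ± 0.32 (SE) with the rod marker covariate and to -0.41 ± 0.19 (SE) with library totals. Over the 18 alternatives the 5 genes ranged from -0.60 to 0.24, and none of them had an unadjusted p under 0.05 in any. The log2 ratio of Map1lc3a to Map1lc3b counts was -1.99 ± 0.26 (SD, n = 3) in the controls against -1.86 ± 0.23 (SD, n = 4) with GSTA4, p = 0.514 in the two-sided exact test. For Gabarapl1 to Gabarapl2 it was -0.41 ± 0.47 (SD, n = 3) and -0.45 ± 0.33 (SD, n = 4), with p = 0.857 in the same exact test. Both were 0.857 after adjustment. How reads shared with near-identical copies of these small genes were counted is not stated, so their levels carry that uncertainty.

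Cargo receptors link tagged cargo to ATG8 proteins. Optn, which encodes optineurin, was at 137, 170 and 143 CPM in AAV-GFP and at 124, 169, 120 and 130 CPM in AAV-GSTA4, overlapping, with a log2 fold change of -0.15 ± 0.21 (SE). Nbr1, a receptor for ubiquitin-tagged aggregates, averaged 126 CPM ± 26.2 (SD, n = 3) and 127 CPM ± 17.3 (SD, n = 4). Tax1bp1, a receptor that acts with NBR1, had the highest count level of the 35 genes, at 915, 614 and 404 CPM in AAV-GFP and 528, 617, 918 and 809 CPM in AAV-GSTA4. Its groups overlapped. Calcoco1, a receptor for endoplasmic reticulum and Golgi, had the highest log2 fold change of the 35, 0.74 ± 0.38 (SE), at an adjusted p of 0.468. Its levels were 59.0, 101 and 87.3 CPM in AAV-GFP and 175, 56.8, 174 and 147 CPM in AAV-GSTA4, where replicate 2 was lower than every control and the other 3 were above them all.

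**Figure D4:**
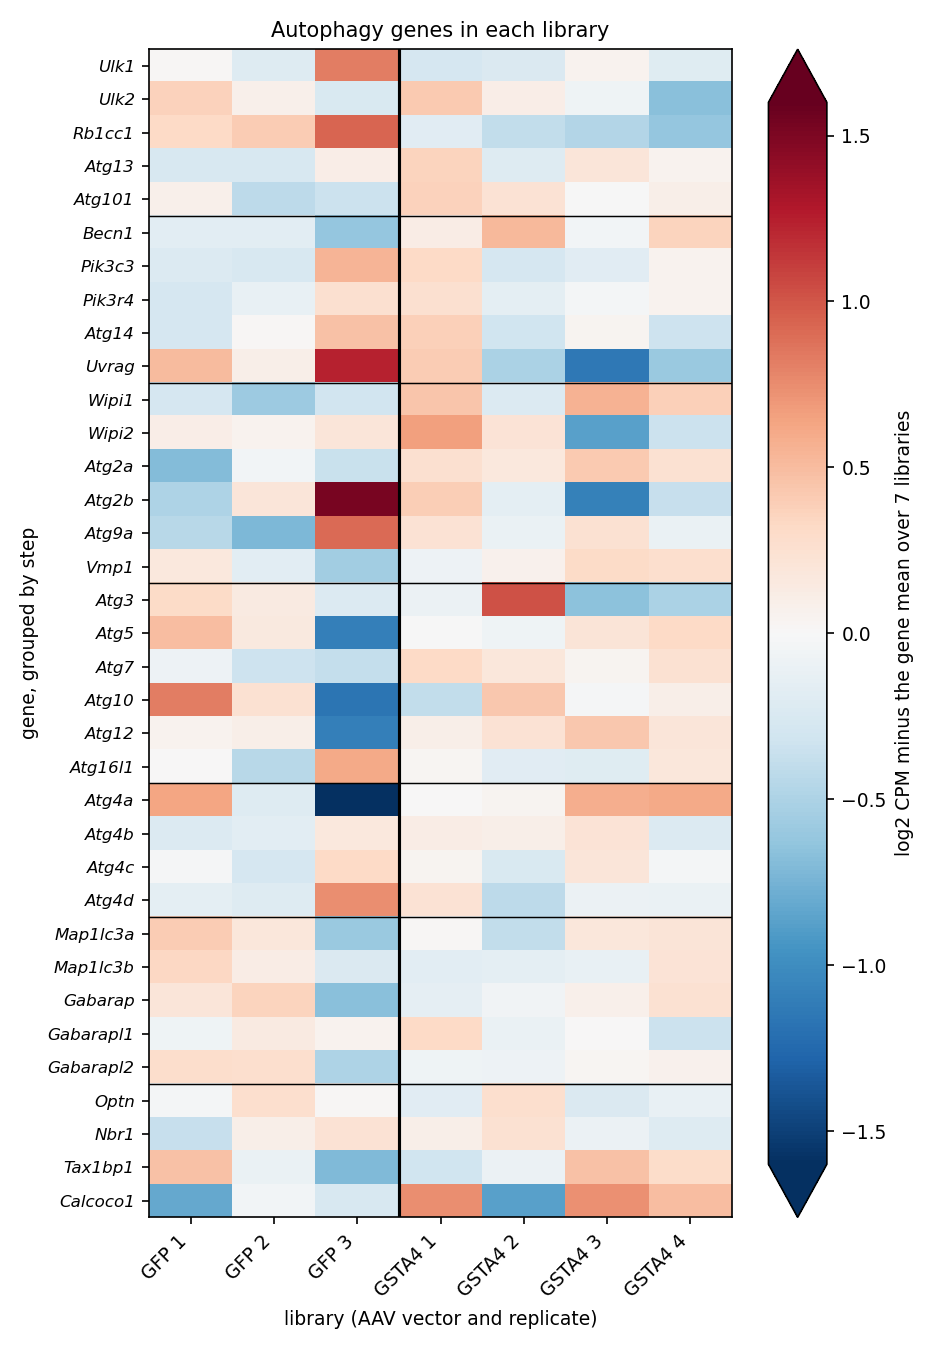
Log2(CPM + 0.5) of each of the 35 autophagy genes in each library minus the gene's mean over the 7 libraries, with genes grouped by step and the vertical line between AAV-GFP and AAV-GSTA4. The AAV-GFP replicate 3 column holds the deepest red and blue, with Atg2b, Uvrag, Rb1cc1 and Atg9a high and Atg4a, Atg10, Atg5 and Atg12 low.

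AAV-GFP replicate 3 held the highest or the lowest value of the 7 libraries for 23 of the 35 genes (65.7%), beside 61.6% of all genes tested, while each other library did so for 4 to 11 of the 35. Set against the mean of the other 2 controls, 19 of the 35 genes were higher in it and 16 lower. Genes with low levels and long exons tended to lie above 0 and abundant, short ones below. Spearman's rho of this log2 deviation was -0.664 with the level in the other 6 libraries and 0.471 with the summed exon length over the 35 genes, and -0.365 and 0.241 over 14898 tested genes with a length. The level includes the 2 controls that are subtracted in the deviation, so part of a negative rho with level is built in. The size of that part was not tested. These are descriptions across genes of 1 set of libraries, since the genes share those libraries. The deviation was 1.66 for Atg2b, 1.48 for Atg9a and 0.94 for Uvrag, and -1.87 for Atg4a, -1.70 for Atg10 and -1.42 for Atg5.

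**Figure D5:**
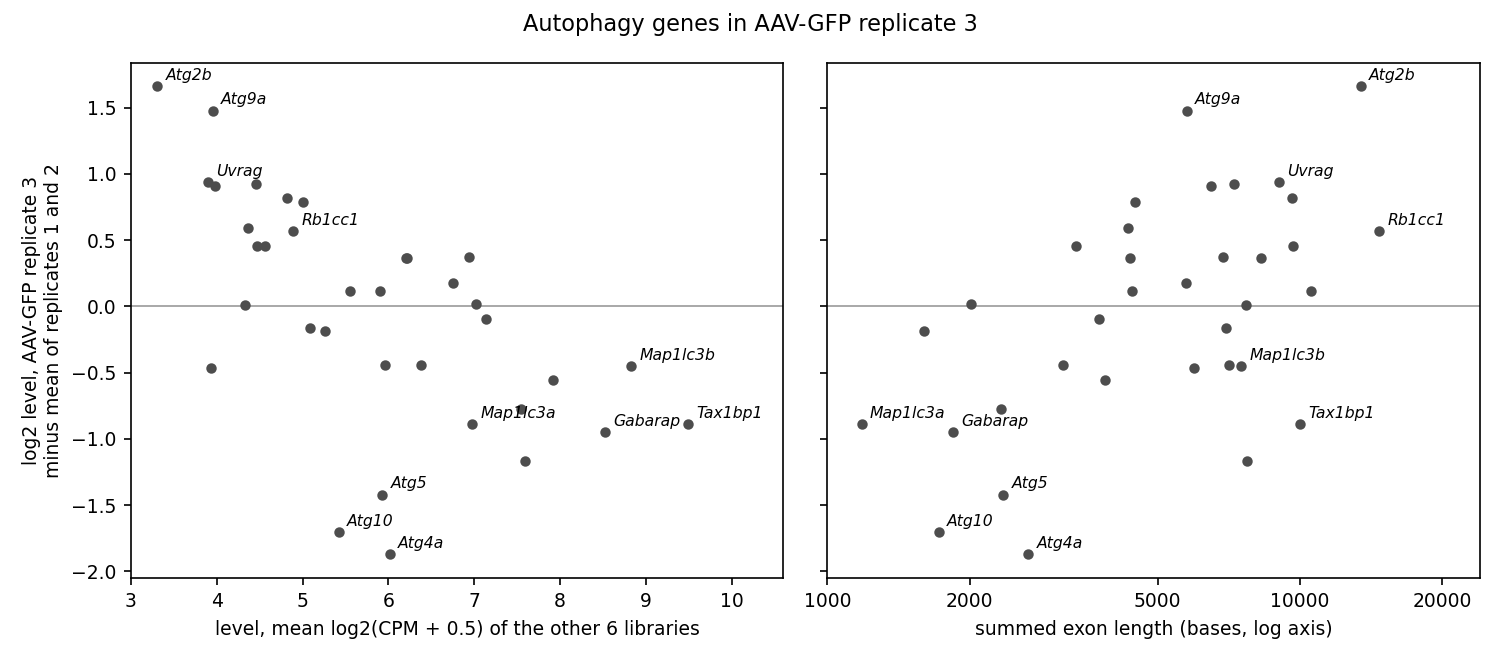
Log2(CPM + 0.5) of each of the 35 autophagy genes in AAV-GFP replicate 3 minus the mean of AAV-GFP replicates 1 and 2, against the gene's level in the other 6 libraries (left) and against its summed exon length on a log axis (right). Points fall from upper left to lower right in the left panel, with Spearman's rho of -0.664. AAV-GFP replicates 1 and 2 enter both axes of that panel, so part of a negative rho is built in.

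Without that library, 4 of the 35 genes had an unadjusted p under 0.05, Rb1cc1, Wipi1, Atg2a and Atg9a, beside 12.5% of all genes. All 6 genes named above, which were picked with that library included, kept their direction, and Becn1 was at 0.43 ± 0.21 (SE). When libraries were scaled by their totals alone, the median of all genes moved from -0.07 to -0.37 and that of the autophagy genes from -0.03 to -0.32. Under that scaling Rb1cc1 and Uvrag, at -1.34 and -1.41, were the 2 genes of the 35 with an unadjusted p under 0.05, beside 15.9% of all genes. Becn1, Wipi1, Atg2a and Atg7 were still above 0 at 0.29, 0.39, 0.32 and 0.19.

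Around the core machinery, 56 further genes of the pathway were examined and all passed the filter. None passed after adjustment in edgeR's test, the smallest adjusted p being 0.363, and 7 (12.5%) had an unadjusted p under 0.05, 6 higher and 1 lower, beside 11.9% of all genes tested, 5.27% higher and 6.63% lower. The share of these genes was thus near that of all genes. The 1 lower gene, Atg9b, passed the filter only through the AAV-GFP libraries, where it was high. Leaving out AAV-GFP replicate 2 or AAV-GSTA4 replicate 3 brought the 7 down to 4, where the share of all genes was 10.5% and 6.88%. The groups did not overlap for 10 of the 56 genes, Atg9b among them, beside 12% of all genes tested. The median log2 fold change of the 56 was 0.11. By function, the 7 were spread over 2 of 18 upstream kinases, nutrient sensors and TFEB family members, 0 of 7 partners of the lipid kinase, 1 of 9 other membrane and conjugation genes, 2 of 10 other cargo receptors and 2 of 12 fusion genes.

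Among the upstream genes, Mtor, the kinase that restrains the ULK1 complex when nutrients are present, was at 62.2, 55.9 and 77.4 CPM in AAV-GFP and at 122, 94.3, 119 and 97.6 CPM in AAV-GSTA4. The groups did not overlap, and the log2 difference was 0.73 ± 0.21 (SE), at an adjusted p of 0.363 in edgeR's test and 0.0456 in limma-voom with robust moderation. Without robust moderation no gene passed in limma-voom, and over the 18 alternatives the adjusted p of Mtor ran from 0.0456 to 0.865. Prkaa2, a catalytic subunit of AMP-activated kinase, which opposes mTOR, was at 0.91 ± 0.34 (SE), and Tsc2, which restrains mTOR, at 0.44 ± 0.21 (SE). Neither overlapped between groups, but the highest Prkaa2 control (29.9 CPM) and the lowest AAV-GSTA4 library (30.4 CPM) differed by little. Tsc2 had an unadjusted p of 0.0621 in edgeR's test. Tfeb, a master activator of lysosomal and autophagy genes, was low in both groups, averaging 12.0 CPM ± 0.477 (SD, n = 3) in the controls and 9.38 CPM ± 0.536 (SD, n = 4), without overlap and with an adjusted p of 0.592. Its relative Mitf averaged 70.7 CPM ± 34.2 (SD, n = 3) and 107 CPM ± 21.2 (SD, n = 4), overlapping.

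Of the other receptors, Sqstm1 (p62, which carries ubiquitin-tagged cargo) was at 549, 497 and 330 CPM in AAV-GFP and at 563, 775, 476 and 507 CPM in AAV-GSTA4, with overlapping groups and an adjusted p of 0.656. Tollip, an adaptor for ubiquitin-tagged cargo, and Rtn3, a receptor for endoplasmic reticulum tubules, were at log2 fold changes of 0.75 ± 0.25 (SE) and 0.67 ± 0.27 (SE), both without overlap. The subunits Vps39, Vps16 and Vps11 of the tethering complexes that join autophagosomes or endosomes to lysosomes were at 0.48, 0.62 and 0.36, also without overlap. Of these, Vps11 had an unadjusted p of 0.088 in edgeR's test. Other subunits of these complexes, Vps41, Vps18 and Vps33a, were at 0.27, 0.19 and -0.04, with overlapping groups. Rubcn, needed for LC3-associated phagocytosis and a brake on autophagy, averaged 32.4 CPM ± 8.11 (SD, n = 3) and 34.9 CPM ± 6.26 (SD, n = 4). Atg9b, the second ATG9 gene, had 18, 22 and 49 counts in AAV-GFP and 8, 0, 0 and 4 counts in AAV-GSTA4, where 2 libraries were at 0 counts, which allows up to 3. Because it passed the filter only through the AAV-GFP libraries, its lower level in AAV-GSTA4 is not independent of that filter.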

How the data were processed

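The authors deposited 1 table of raw read counts per gene symbol and library. STAR 2.7.1a, featureCounts 1.6.2 and the builds GRCm38 and GRCh38 are listed in the submitters' processing notes, without roles. The annotation, strand setting and multi-mapping rule are not given in the sources used here. Columns were matched to samples by library name, and replicates are numbered by title. Totals ranged from 15329181 to 28998964 counts, and no molecular identifiers are mentioned, so counting floors (3 counts) cover counting error only. All pairs of libraries differed beyond counting noise (chi-square per gene at least 57.5). By this measure AAV-GFP replicate 3 lay at 211 to 394 from the other libraries. AAV-GSTA4 replicate 2 lay as far apart, at 219 to 391, including 310 and 300 from AAV-GSTA4 replicates 3 and 4.

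The main test was edgeR 4.0.16 (R 4.3.3): TMM scaling, the default expression filter, robust quasi-likelihood fit, group as the only factor, Benjamini-Hochberg adjustment over 15075 genes at 0.05. Standard errors are the log2 fold change over the square root of F. CPM uses the summed counts of tested genes times the TMM factor. Alternatives used DESeq2 1.42.0, limma 3.58.1 and other scalings, filters, covariates and left-out libraries. Ratios of 2 genes used log2 of counts plus 1 and exact permutation tests. The fit was also run on simulated counts with no change or with large fold changes, and without an outlying library. That run does not bear on the smaller differences given here.

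The members and lists were chosen with earlier results of these data known. Values for every library were given for genes with an unadjusted p under 0.05 or no overlap, the ATG8 genes, Ulk1, Ulk2, Becn1, Atg9a, Atg5, Atg7, Optn and the extremes of level. Of the other genes of the pathway, the 10 with the smallest p among those and Sqstm1, Tfeb, Mitf, Mtor and Rubcn were named. Atg2b, Tax1bp1, Calcoco1, Vps41, Vps18, Vps33a and values for single further genes were added after they were seen. Lists of endothelial, fibroblast, melanocyte, glial and lens markers were examined with the others.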

Additional observations from a re-analysis of the deposited data

Results flagged for a closer look

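Map1lc3b in AAV-GSTA4 replicate 4 was at 515 CPM, apart from the other 3 libraries of its group at 394 to 408 CPM; the step to its nearest neighbour was 0.881 of the range of the 4 libraries, past Dixon's 95% critical value. It was 1 of 35 genes examined in this way, where chance gives about 5%. This library had 43.7 CPM of hGSTA4, between the other libraries of its group.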

How the results depend on the processing

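With DESeq2, 201 of all genes and 1 autophagy gene (Rb1cc1) passed the adjusted threshold. With robust limma-voom 146 and 1 did, and 14 of the 56 further pathway genes had an unadjusted p under 0.05, beside 21.7% of all genes. Without robust moderation, an alternative chosen after seeing the data, limma-voom called 0 and 14 of the 56 were under 0.05, beside 21.8%. Library totals left 2 autophagy genes at an unadjusted p under 0.05, beside 15.9% of all genes, and the median log2 fold change of the autophagy genes was -0.32. The rod covariate left 1 autophagy gene and 4 further genes, beside 7.88% of all genes, and 2 of all genes called. With the presence of Y-linked transcripts as a factor, 5 autophagy genes had an unadjusted p under 0.05, beside 9.84% of all genes, and 0 genes were called. These 5 were Rb1cc1, Becn1, Uvrag, Wipi1 and Atg2a. Leaving out each library in turn gave 2 to 8 autophagy genes, 4 to 9 further genes, beside 6.88% to 12.7% of all genes, and 0 to 1 called genes, the 1 without AAV-GSTA4 replicate 3. The cause was not tested. The 6 autophagy genes at an unadjusted p under 0.05 kept their sign in all 18 alternatives. They were picked from these same libraries, so this is not independent support.

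The labels do not say whether replicate numbers pair the samples. Deviations of same-numbered libraries correlated at -0.18, 0.03 and -0.012 by title and at -0.18, 0.041 and -0.2 by library name. With so few libraries these values cannot decide whether the numbers mark a pairing or a batch. With the replicate block by title, 1 of all genes was called, and 1 autophagy gene and 3 further genes had an unadjusted p under 0.05, beside 5.63% of all genes. With the block by library name, 1 was called, with 4 autophagy genes and 2 further genes, beside 7.62%. Under the title block the log2 ratios differed by 0.15 (Map1lc3a to Map1lc3b), 0.09 (Gabarapl1 to Gabarapl2) and -0.46 (Ulk1 to Ulk2). With 7 libraries and a biological coefficient of variation of 48.2%, small differences could not be told from the spread.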
